A study of Mus musculus with 8 samples.

Results

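The La-related proteins (LARPs) and the Pumilio protein Pum2 were followed here in isolated mouse hepatocytes that lacked or retained the cannabinoid 1 receptor. The group held 8 genes, *Larp1*, *Larp1b*, *Larp4*, *Larp4b*, *Larp6*, *Larp7*, *Ssb* and *Pum2*, out of 21368 genes that the array named through their accessions. All 13 probes of these genes were taken, with 2 probes for each of 5 genes and 1 probe for each of 3 genes. *Larp4* and *Pum2* were selected on their fold change between the genotypes in these same arrays, where they were among the largest rises of the knockout, and the others were added because they are relatives or share their work. The values of all 8 genes are therefore given as a description, without a test.

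LARPs share a La module, a pair of adjoining RNA-binding folds named after the La autoantigen, which is the product of *Ssb*. La itself holds the uridine-rich ends of new RNA polymerase III transcripts, Larp7 holds the 7SK RNA that restrains transcription elongation, and Larp6 binds collagen mRNAs. Larp1 and its paralog Larp1b act on mRNAs that begin with a terminal oligopyrimidine (TOP) tract, most of which encode ribosomal proteins. Larp4 and its paralog Larp4b contact the poly(A)-binding protein. Larp4 also binds poly(A) and protects mRNAs from loss of their tails. Pum2 works in the opposite sense: it binds a short sequence in the untranslated region after the coding part of its target mRNAs. There it recruits the CCR4-NOT complex, which removes poly(A).

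Hepatocyte RNA came from 4 hCNR1+/+ mice (labelled hCNR1_WT, strain CNRO) and 4 hCNR1-/- mice (labelled hCNR1_cKO, strain CNRO Alb-Cre), all of them untreated males of 12 to 14 weeks on a standard diet. The knockouts were bred by crossing albumin-Cre mice, in which the albumin promoter drives Cre in hepatocytes, with mice carrying a floxed *CNR1* gene, and the controls were littermates. Since the strain label names Alb-Cre for the knockouts alone, loss of the receptor and presence of Cre cannot be told apart. Each sample was hybridised to 1 single-colour Agilent array, and a level below is the log2 signal of a probe relative to the 75th percentile of its own array, so 0 is the signal of a fairly bright spot. *Cnr1*, the targeted gene, had 1 probe, which no array measured well above background (0 of 8), so the genotypes rest on the labels.

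The 8 arrays shared 1 slide, and because hCNR1+/+ took row 1 and hCNR1-/- took row 2, an effect of the row cannot be told apart from one of the genotype. The 75th percentile intensity ran from 62.0 to 139 in hCNR1+/+ and from 29.3 to 124 in hCNR1-/-, and 28.6% to 42.3% of spots were well above background. The dimmest array, hCNR1-/- replicate 4, had a mean correlation of 0.942 with its own group, against 0.972 to 0.975 for the other 3 arrays of that genotype. All 13 hepatocyte markers were well above background on all 8 arrays, with mean levels of 8.40 to 9.08 in hCNR1+/+ and 8.33 to 8.71 in hCNR1-/-. Single markers differed more, with log2 fold changes from -1.81 to 1.63, 1 of 13 called higher and 0 lower. Kupffer cell markers moved with genotype: all 11 that were tested had a lower mean in hCNR1-/-, 2 of them past the threshold, and their mean level was 1.23 to 2.43 in hCNR1+/+ against 0.19 to 1.01 in hCNR1-/-. Of the 14 listed Kupffer cell genes, *Adgre1*, *Cd163* and *Timd4* were too dim to be tested. Fewer cells of a type and less RNA per cell cannot be told apart in such bulk samples, and the part of the Kupffer cell signal or of array brightness in the values below was not tested.

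Of the 11072 genes bright enough to be tested, 325 (2.94%) were higher and 144 (1.3%) lower in hCNR1-/- at an adjusted p below 0.05 by limma. These shares depended on the scaling, with 25 higher and 25 lower after median scaling, 30 and 51 in the deposited z-scores, and 1 and 29 without scaling. Over the 11072 genes the median difference was 0.08 on the log2 scale. Of the 8 genes described here, 7 were tested, and *Larp4* and *Pum2* were among the 325, as their choice fixes. Every hCNR1-/- array lay above every hCNR1+/+ array for 2 of the 7 genes and for 12.7% of all tested genes. The 2 were *Larp4* and *Pum2*, which were chosen for their rise, so this count says nothing about the family. The genotypes overlapped for the other tested members on the probe that entered the test. The median log2 fold change of the 7 genes was 0.26, from -0.51 for *Larp1b* to 2.89 for *Larp4*, and 6 of the 7 were above 0. Without scaling the median of all genes fell to -0.47 and only 3 of the 7 were above 0. The scaling subtracts 1 value per array, so leaving it out moves the log2 fold change of every gene by the same amount.

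**Figure D1:**
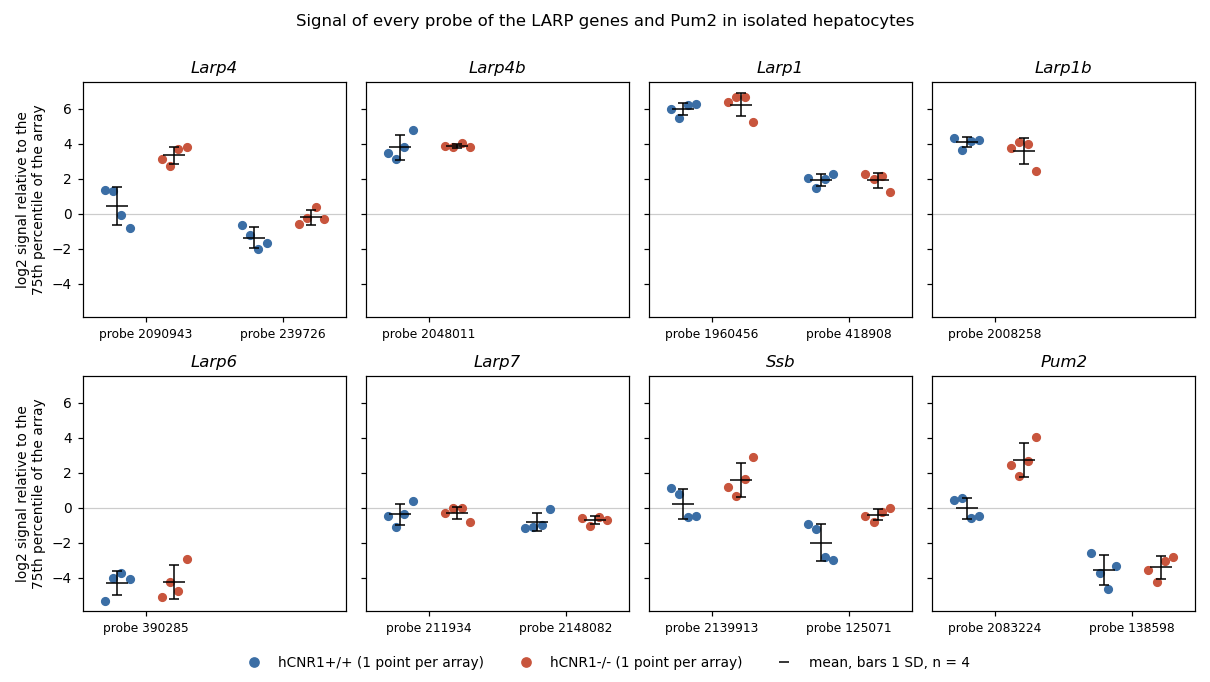
Log2 signal of all 13 probes of the LARP genes and *Pum2*, relative to the 75th percentile of each array, with 1 point per array and the mean and SD of 4 arrays per genotype. The bright *Larp4* and *Pum2* probes stand apart between genotypes (means 0.44 and 3.34, and -0.03 and 2.74), while the second *Pum2* probe and the *Larp6* probe lie near background.

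The poly(A)-side gene *Larp4* had the larger difference of the pair. Its brighter probe, A_55_P2090943, read 1.33, 1.33, -0.04 and -0.84 on the control arrays (hCNR1+/+ replicates 1 to 4, in that order here and below) and 3.16, 2.72, 3.68 and 3.80 on the knockout arrays, in the same order. All knockout arrays were above all control arrays, and within hCNR1+/+ replicates 1 and 2 were well above replicates 3 and 4. The means were 0.44 ± 1.07 (SD, n = 4) and 3.34 ± 0.50 (SD, n = 4), a log2 fold change of 2.89 with a standard error of 0.50, or 7.44-fold. In plain intensity before any scaling the same probe gave 334, 350, 107 and 34.7 in hCNR1+/+ and 1107, 524, 1207 and 407 in hCNR1-/-, which also did not overlap although the last hCNR1-/- array was the dimmest of all. *Larp4* ranked 14th among all tested genes by the size of its rise, and 1st of the 245 that also passed the threshold, were well above background on all arrays and did not overlap.

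The second *Larp4* probe, A_52_P239726, is matched to the same transcript and was well above background on all 8 arrays too. It read -0.64, -1.19, -2.01 and -1.70 in hCNR1+/+ and -0.60, -0.26, 0.39 and -0.32 in hCNR1-/-. The groups again did not overlap, but only just, since hCNR1+/+ replicate 1 and hCNR1-/- replicate 1 differed by less than any pair of neighbours within the knockouts. Its log2 fold change was 1.19 with a standard error of 0.34, or 2.28-fold. Both probes pointed the same way with sizes that differed, and the files do not say where along the transcript each probe lies.

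The translational repressor *Pum2* was measured by 1 usable probe. A_55_P2083224 read 0.43, 0.54, -0.59 and -0.49 in hCNR1+/+ and 2.43, 1.80, 2.67 and 4.06 in hCNR1-/-. As for *Larp4*, replicates 1 and 2 of hCNR1+/+ were the upper pair, replicate 2 was the lowest of hCNR1-/-, and the genotypes did not overlap. The means were -0.03 ± 0.59 (SD, n = 4) and 2.74 ± 0.95 (SD, n = 4), giving a log2 fold change of 2.76 with a standard error of 0.48, or 6.79-fold. Its intensities before scaling, 179, 203, 73.3 and 44.3 against 667, 276, 597 and 488, did not overlap either. *Pum2* ranked 19th among all tested genes by its rise and 3rd of the 245. The other *Pum2* probe, A_52_P138598, reached a level well above background on 1 control array and on 0 of the 4 knockout arrays. Its values gave a difference of 0.17 with overlapping groups, so it did not show the rise, but near background that size is uncertain. The higher *Pum2* signal rests on a single probe.

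*Ssb*, which encodes La, had the next largest difference, on both of its probes. The brighter one, A_55_P2139913, read 1.12, 0.77, -0.50 and -0.50 in hCNR1+/+ and 1.17, 0.67, 1.66 and 2.91 in hCNR1-/-. Here the groups overlapped, because hCNR1-/- replicate 2 lay below both upper hCNR1+/+ arrays. The means were 0.22 ± 0.84 (SD, n = 4) and 1.60 ± 0.96 (SD, n = 4), a log2 fold change of 1.38 with a standard error of 0.54, ranked 273rd. Leaving out hCNR1-/- replicate 4, the highest array for *Ssb* and the dimmest of the slide, lowered it to 0.95.

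The dimmer *Ssb* probe, A_66_P125071, passed background clearly on 2 of the 4 control arrays and on all 4 knockout arrays. It read -0.95, -1.22, -2.82 and -3.01 against -0.48, -0.80, -0.27 and -0.03. These values did not overlap, the difference was 1.60 with a standard error of 0.47, and hCNR1+/+ replicates 1 and 2 were once more the upper pair.

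For the 3 genes with the largest differences the stretch just before the transcription start is shown, together with that of *Larp7*, which held the only full cyclic AMP response element among the group. Cyclic AMP is the messenger that the cannabinoid 1 receptor lowers through its inhibitory G protein. The sequences are the 250 bases before the start in RefSeq (GRCm38.p6), 5′ to 3′ in the direction of the gene, and capitals mark matches on either strand to the cyclic AMP response element TGACGTCA, the ETS core CGGAAG, the CCAAT box CCAAT and the GC box GGGCGG. No pair of these motifs overlapped in the windows shown. RefSeq lists 3 starts for *Pum2*, of which the first entry is given.

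Larp4 (chr15:99972530-99972779, plus strand): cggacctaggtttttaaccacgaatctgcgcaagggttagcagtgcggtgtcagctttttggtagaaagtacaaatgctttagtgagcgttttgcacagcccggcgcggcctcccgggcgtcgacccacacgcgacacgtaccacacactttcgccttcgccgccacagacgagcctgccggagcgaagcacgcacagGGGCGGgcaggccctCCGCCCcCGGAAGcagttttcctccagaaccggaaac
Pum2 (chr12:8674009-8674258, plus strand): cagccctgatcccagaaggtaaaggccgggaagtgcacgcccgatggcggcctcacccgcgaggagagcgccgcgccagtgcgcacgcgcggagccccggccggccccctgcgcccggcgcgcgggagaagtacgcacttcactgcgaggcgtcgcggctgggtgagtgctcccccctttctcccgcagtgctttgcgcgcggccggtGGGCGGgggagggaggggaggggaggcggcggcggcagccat
Ssb (chr2:69861312-69861561, plus strand): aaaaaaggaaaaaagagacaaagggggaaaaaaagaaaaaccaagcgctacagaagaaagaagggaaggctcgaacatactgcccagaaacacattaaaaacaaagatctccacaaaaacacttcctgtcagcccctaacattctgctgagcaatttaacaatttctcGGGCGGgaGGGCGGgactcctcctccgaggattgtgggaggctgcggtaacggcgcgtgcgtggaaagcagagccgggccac
Larp7 (chr3:127553350-127553599, minus strand): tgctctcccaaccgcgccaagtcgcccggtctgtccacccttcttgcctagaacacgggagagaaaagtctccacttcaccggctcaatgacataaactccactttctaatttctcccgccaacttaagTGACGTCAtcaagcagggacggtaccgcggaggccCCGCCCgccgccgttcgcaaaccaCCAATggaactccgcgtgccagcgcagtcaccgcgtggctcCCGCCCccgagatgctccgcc

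The windows of *Larp4*, *Pum2* and *Ssb* each held at least 1 GC box. They began 52 and 37 bases before the start in *Larp4*, 42 bases in *Pum2*, and 82 and 74 bases in *Ssb*, and 32.7% of all 32851 listed promoters held one in such a window. GC boxes were not particular to these genes: *Larp1* held 7, *Larp4b*, *Larp6* and *Larp7* held 2 each, and *Larp1b* held 0. The second listed *Pum2* start had 0 and the third had 2. *Larp4* also had an ETS core 30 bases before the start, a motif found in 13.6% of promoters. *Larp1* (232 bases) and the third *Pum2* start (25 bases) had one too. No CCAAT box, present in 33.8% of promoters, was found in the windows shown for *Larp4*, *Pum2* and *Ssb*. The cyclic AMP response element of *Larp7*, 121 bases before the start, is a sequence found in 1.55% of promoters, and *Larp7* was a gene whose signal moved little. By base composition the 3 windows ran from 49.6% GC in *Ssb* to 61.2% in *Larp4* and 75.6% in *Pum2*, around a median of 52.4% over all promoters. A match is a run of letters and not a shown binding site.

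The other LARP genes differed far less. *Larp4b*, the close paralog of *Larp4*, read 3.50, 3.13, 3.80 and 4.80 in hCNR1+/+ and 3.85, 3.81, 4.04 and 3.83 in hCNR1-/- on its 1 probe. The knockout arrays fell inside the span of the controls, whose replicate 4 was the highest. The log2 fold change was 0.07 with a standard error of 0.33, and its sign turned without scaling, where it was -0.48, as well as after quantile normalization, after normexp background correction and without hCNR1+/+ replicate 1 or 2; in the z-scores it was 0.

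*Larp1*, which controls TOP mRNAs downstream of the growth kinase mTORC1, read 5.98, 5.47, 6.22 and 6.26 in hCNR1+/+ and 6.37, 6.65, 6.68 and 5.25 in hCNR1-/- on its brighter probe, A_55_P1960456. Replicates 1, 2 and 3 of the knockout were above all controls and replicate 4 was below them all. The log2 fold change was 0.26 with a standard error of 0.35, which became -0.30 without scaling and 0.59 without hCNR1-/- replicate 4. The dimmer probe, A_51_P418908, gave -0.03 with a standard error of 0.28.

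*Larp1b* was the only one of the 7 genes with a lower mean in the knockout. It read 4.32, 3.66, 4.16 and 4.23 in hCNR1+/+ and 3.78, 4.12, 3.97 and 2.47 in hCNR1-/-. The groups overlapped, and the lowest value again belonged to hCNR1-/- replicate 4. The log2 fold change was -0.51 with a standard error of 0.36, and -0.14 without that array.

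*Larp7*, the 7SK-binding member, read -0.45, -1.11, -0.35 and 0.39 in hCNR1+/+ and -0.27, -0.04, -0.04 and -0.78 in hCNR1-/- on probe A_51_P211934. It was well above background on 4 of 4 control and 3 of 4 knockout arrays, and the groups overlapped. Its log2 fold change was 0.10 with a standard error of 0.33, turning to -0.46 without scaling, -0.09 in the z-scores and -0.15 without hCNR1+/+ replicate 2. The second probe, A_55_P2148082, gave 0.13 with a standard error of 0.28. *Larp6*, the collagen mRNA binder, was well above background on 0 of 8 arrays and has no fold change here, and its 3 collagen targets *Col1a1*, *Col1a2* and *Col3a1* were too dim to be tested as well.

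**Figure D2:**
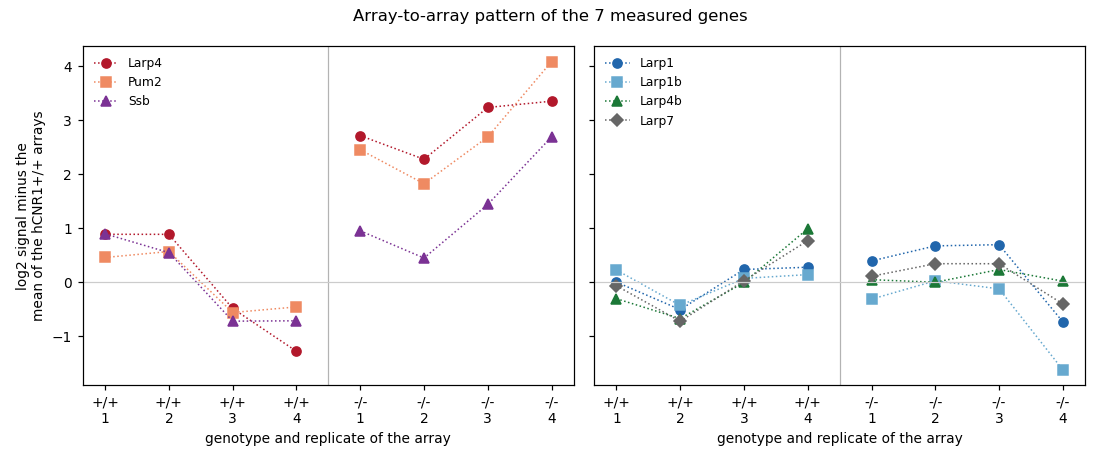
Log2 signal of the 7 measured genes on each array, minus the gene's own mean over the 4 hCNR1+/+ arrays. Dotted lines join the values of 1 gene, and the replicate number matches the slide column. *Larp4*, *Pum2* and *Ssb* share the same upper pair of hCNR1+/+ arrays and the same lowest hCNR1-/- array, replicate 2, whereas *Larp1*, *Larp1b* and *Larp7* have their lowest hCNR1-/- value on replicate 4.

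The array-by-array pattern split the 7 genes. *Larp4*, *Pum2* and *Ssb* had hCNR1+/+ replicates 1 and 2 above replicates 3 and 4, had hCNR1-/- replicate 2 lowest and had replicate 4 highest. *Larp1*, *Larp1b*, *Larp4b* and *Larp7* had hCNR1+/+ replicate 2 lowest, and all but *Larp4b* had hCNR1-/- replicate 4 lowest. Measured as the root mean square difference of centred log2 profiles over 8 arrays, *Larp4* and *Pum2* were 0.51 apart, *Pum2* and *Ssb* 0.72 and *Larp4* and *Ssb* 0.87. Among the other 4 genes the distances ran from 0.23 (*Larp4b* and *Larp7*) to 0.65 (*Larp1b* and *Larp4b*), and between the sets from 1.25 to 1.99. These distances hold the genotype difference that chose *Larp4* and *Pum2*, so they describe the pattern and support nothing further.

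Among 8338 other genes well above background on all arrays, the 5 nearest to *Larp4* by this distance were *Septin7* (0.18), a cytoskeletal GTPase, *Smarca5* (0.21), a chromatin remodeller, *Hsp90aa1* (0.24), an inducible chaperone, *Ktn1* (0.30), a kinesin-binding membrane protein, and *Ddx3x* (0.39), an RNA helicase. Their log2 fold changes ran from 2.42 for *Ddx3x* to 2.78 for *Smarca5*. The 5 nearest to *Pum2* were *Marchf7* (0.31), a ubiquitin ligase, *Gm14326* (0.38), *Zfp943* (0.44), a zinc finger gene, and again *Hsp90aa1* (0.47) and *Smarca5* (0.49). *Hsp90aa1* and *Smarca5* were thus near both genes, and all of these genes were higher in the knockout, as the measure requires.

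The proteins that these RNA-binding proteins work with were then examined in lists of 172 genes, of which 159 were tested. By limma, 12 (7.55%) were higher and 0 lower in hCNR1-/- at an adjusted p below 0.05, with 5 lower at an unadjusted p below 0.05. Of the 12, 9 were TOP mRNAs, and of the 77 tested genes outside that list 3 (3.90%) were higher, against 2.94% of all genes. The count ran from 0 without hCNR1+/+ replicate 3 to 52 without hCNR1-/- replicate 4, and leaving out any array moved it by more than 1.5-fold. The count was 2 after quantile normalization and 0 with median scaling or no scaling.

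**Figure D3:**
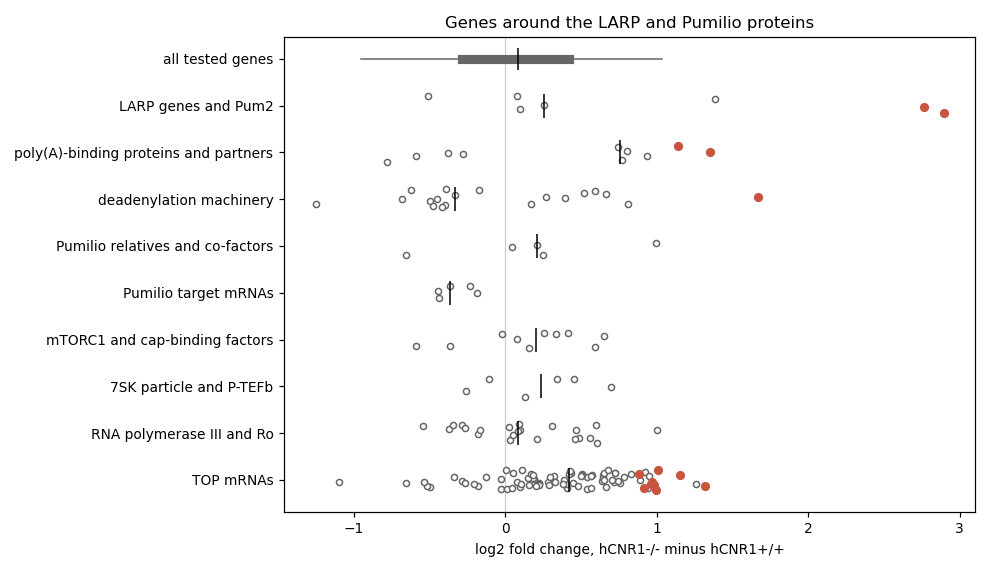
Log2 fold change (hCNR1-/- minus hCNR1+/+) of each tested gene in the lists around the LARP and Pumilio proteins, with genes past an adjusted p of 0.05 filled, the median as a vertical tick, and the top row giving the median, the interquartile range (thick) and the span from the 5th to the 95th percentile (thin) of all tested genes. Filled points lie to the right of 0 in every list that has any, and the TOP mRNA median is 0.42 against 0.08 for all genes.

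The poly(A)-binding proteins, which Larp4 contacts, and their listed partners had 2 of 10 genes higher. Their median log2 fold change was 0.76, with 4 of 10 below 0, and it stayed above 0 at 0.20 without scaling. Called genes of this list numbered 0 with quantile normalization, median scaling, no scaling, the z-scores or normexp. *Pabpc4*, a cytoplasmic poly(A)-binding protein, read 4.63, 4.56, 4.60 and 4.53 in hCNR1+/+ and 5.86, 5.52, 5.74 and 6.59 in hCNR1-/-. The control arrays were tightly grouped and all knockouts lay above them, a rise of 1.35 on the log2 scale with a standard error of 0.25 (adjusted p = 0.0257 by limma). *Paip1*, which binds the poly(A)-binding protein and promotes translation, rose by 1.14 with a standard error of 0.27 (adjusted p = 0.0492 by limma). With 1 array left out, *Pabpc4* kept its call in 2 of 8 fits and *Paip1* in 1 of 8, in both cases including the fit without hCNR1-/- replicate 4.

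Among the 19 tested deadenylation genes, only *Tob1* passed, and the median was -0.33. The list holds subunits of CCR4-NOT, which Pum2 recruits, together with other deadenylases and adaptors. The median of the list was -0.06 without hCNR1-/- replicate 4, -0.08 without hCNR1+/+ replicate 4 and -0.89 without scaling. *Tob1*, an adaptor that brings CCR4-NOT to mRNAs held by poly(A)-binding protein, read 0.49, 0.33, 0.32 and 0.31 in hCNR1+/+ and 2.21, 1.49, 1.97 and 2.45 in hCNR1-/-. Its groups were clearly apart, a rise of 1.67 on the log2 scale with a standard error of 0.24 (adjusted p = 0.0123 by limma). The call held in 7 of 8 fits with 1 array left out, the exception being the fit without hCNR1+/+ replicate 3. It was lost under other processing: called genes of this list numbered 0 with median scaling, no scaling, normexp, no filter on dim probes or the replicate block. *Btg3*, of the same family of anti-proliferative adaptors, had the opposite sign at -1.25 without passing (adjusted p = 0.197 by limma), and -0.70 without hCNR1-/- replicate 4.

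Of the 5 tested Pumilio relatives and co-factors, limma called 0, with 1 higher and 1 lower at an unadjusted p below 0.05 and a median of 0.21, which was -0.35 without scaling. *Cpeb1*, a binder of cytoplasmic polyadenylation elements, had -0.66 (adjusted p = 0.103).

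Known mRNA targets of Pumilio proteins were not called. All 5 that were listed and tested had a lower mean in hCNR1-/-, also under each other scaling, with a median log2 fold change of -0.37. This rested on hCNR1-/- replicate 4, since without it the median was 0.03 and 4 of the 5 were above 0, and with probes averaged 2 of the 5 were above 0. By limma 0 of them passed, and 0 had an unadjusted p below 0.05. The cell cycle inhibitor *Cdkn1b* had -0.45 (adjusted p = 0.564 by limma) and the cell cycle factor *E2f3* -0.44 (adjusted p = 0.615 by limma). For both, hCNR1-/- replicate 4 was the lowest of all arrays, at 0.71 and -0.84, and the genotypes overlapped.

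TOP mRNAs, the targets of Larp1, were 82 tested genes, and 9 of them rose. Their median log2 fold change was 0.42 and 69 of the 82 were above 0, against a median of 0.11 and 47 genes after quantile normalization, and -0.13 and 32 genes without scaling, where the median of all genes was itself -0.47. Called TOP mRNAs numbered 0 under both of those scalings. With 1 array left out they numbered 0 in 6 of 8 fits, 3 without hCNR1+/+ replicate 4 and 40 without hCNR1-/- replicate 4. *Rps3* had the largest called difference at 1.32 (standard error 0.25, adjusted p = 0.0279 by limma), followed by *Rpl39* at 1.15 (adjusted p = 0.0448) and *Rplp1* at 1.01 (adjusted p = 0.0240), all 3 encoding ribosomal proteins. For *Rplp1* the controls read 9.21, 9.49, 9.39 and 9.50 and the knockouts 10.30, 10.56, 10.34 and 10.42, a narrow spread in both groups. With 1 array left out, *Rps3* and *Rpl39* kept their calls in 1 of 8 fits each and *Rplp1* in 2 of 8. Ribosomal protein genes have many near-identical processed copies, so these probes may read more than the named gene.

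The remaining lists held 0 calls by limma, and their medians were all above 0. Without scaling, which moves all genes by the same amount, the median of all genes was -0.47. The list medians were then -0.35 for mTORC1 and cap-binding factors, -0.32 for the 7SK particle and -0.47 for RNA polymerase III and Ro. Their turn below 0 thus says nothing particular about these lists. Without hCNR1-/- replicate 4 these remaining lists held 4 calls in all. The mTORC1 and cap-binding factors, of which mTORC1 acts upstream of Larp1, had 0 of 10 called, 2 higher at an unadjusted p below 0.05 and a median of 0.20. The scaffold *Eif4g1* had 0.65 (adjusted p = 0.0928 by limma) and *Eif4ebp1*, an inhibitor of the cap-binding protein, 0.59 (adjusted p = 0.139). These were the 2 of 10 that did not overlap between genotypes, and 12.7% of all tested genes were likewise apart in that direction. The 7SK particle and its kinase, the setting of Larp7, had 0 of 6 called, 0 at an unadjusted p below 0.05 and a median of 0.23, with *Hexim1*, the kinase inhibitor, at 0.70 (adjusted p = 0.312). RNA polymerase III and Ro, which make and share the ligands of La, had 0 of 22 called, 2 higher at an unadjusted p below 0.05 and a median of 0.09 (-0.04 in the z-scores), with the initiation factor *Bdp1* at 1.00 (adjusted p = 0.465) and the subunit *Polr3b* at 0.60 (adjusted p = 0.356). *Bdp1* rested on hCNR1+/+ replicate 4, at -3.96, and was 0.16 without it, while *Polr3b* was 0.96 and passed without hCNR1-/- replicate 4.

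**Figure D4:**
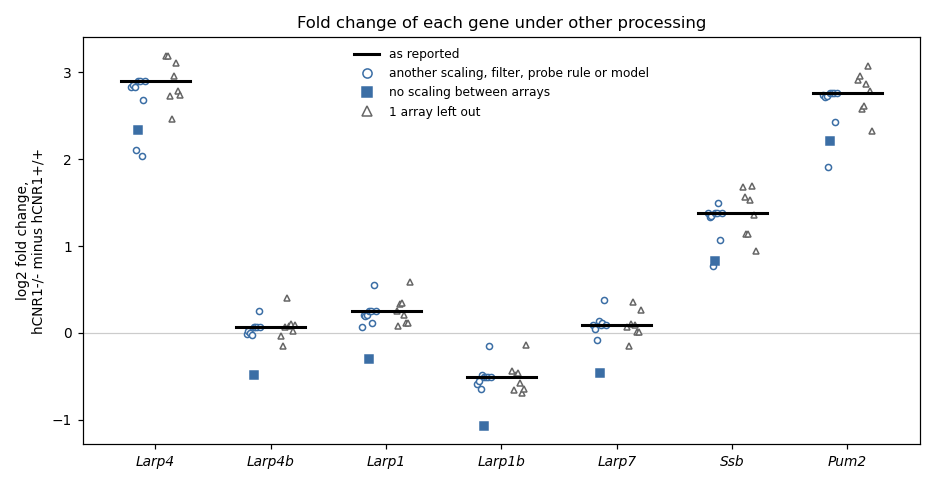
Log2 fold change (hCNR1-/- minus hCNR1+/+) of the 7 measured genes as reported (bar) and under other processing: circles are other scalings, filters, probe rules and models, the square is no scaling between arrays, and triangles leave out 1 array. *Larp4* stays between 2.04 and 3.19 and *Pum2* between 1.91 and 3.08, whereas *Larp1*, *Larp4b* and *Larp7* lie on both sides of 0.

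Under other processing the sizes of the leading differences moved and their direction did not. *Larp4* ran from 2.04, when its probes were averaged, to 2.89, and from 2.47 without hCNR1+/+ replicate 4 to 3.19 without hCNR1+/+ replicate 1. *Pum2* ran from 1.91 with normexp background correction to 2.76, and from 2.32 without hCNR1-/- replicate 4 to 3.08 without hCNR1-/- replicate 2. *Ssb* ran from 0.77 with normexp to 1.49 with averaged probes.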

How the data were processed

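The genes and the lists around them were chosen with earlier results of these data known. What the authors deposited is an intensity per spot from Agilent Feature Extraction version 12.0.3.1, corrected for background but not scaled between arrays, and a score per spot that matched a z-score computed from the log intensities to 0.005. Their scaling and test are not given in the sources used here.

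Each array was put on the log2 scale and centred on its 75th percentile, taken over 59305 non-control spots. Spots flagged as outliers were dropped and spots of a probe averaged. Accessions were matched to RefSeq symbols (GRCm38.p6), naming 28331 of 55681 probes; the header build of the array is mm9, so no probe positions are given. A gene entered the test through its brightest probe if a probe stood well above background (at least 50% of its spots) on 4 or more of the 8 arrays, with a two-sided moderated fit in limma version 3.58.1 (R version 4.3.3) and Benjamini-Hochberg adjustment over 11072 genes; the fit was tested on simulated data. The series describes 4 mice per genotype, and all 8 arrays were used; the study's figure legend for the expression data gives fewer mice per genotype and does not say which. P-values measure the spread between these arrays.

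Genes named are all 8 members, *Cnr1*, up to 3 called genes per list by size of change (the 2 largest changes where fewer than 2 were called), and the 5 nearest profiles to *Larp4* and *Pum2*; some genes that this rule names are not reported here. Lists covered the members' partners and targets and markers of hepatocytes, Kupffer, endothelial, stellate and bile duct cells, lymphocytes, neutrophils and the immediate-early response. Motifs were counted with Python version 3.11.15 in the 250 bases before each RefSeq start. The alternatives were quantile, median and no scaling, the z-scores, normexp correction (offset 50, median signals), other filters and probe rules, array weights, a replicate block and each array left out. The number of arrays limits the precision.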

Additional observations from a re-analysis of the deposited data

Results flagged for a closer look

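Of 44 groups of 4 values examined, 3 held a value far from the other 3, and chance alone flags about 1 in 20. All 3 were on hCNR1-/- replicate 4, the array with the highest *Pum2* and *Ssb* values and the lowest *Larp1* and *Larp1b* values. Its mean correlation with its own group was 0.942, against 0.972 to 0.975 for the others. Its mean lymphocyte marker level was 5.30, against 3.98 to 4.18, and its mean neutrophil marker level was 5.60, against 4.92 to 5.01. Without this array the log2 fold change was 2.74 for *Larp4*, 2.32 for *Pum2* and 0.95 for *Ssb*.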

How the results depend on the processing

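*Larp4*, *Pum2* and *Ssb* stayed higher and *Larp1b* lower in hCNR1-/- under all alternatives run; *Larp4* was 2.04 with its probes averaged and *Pum2* 1.91 with normexp correction. Counts depended strongly on the processing, and the cause was not tested. Genes called higher, 325 as reported, became 133 with quantile normalization, 25 with median scaling, 1 without scaling, 30 in the z-scores, 28 with normexp, 8 without a filter on dim probes and 2176 with array weights. Genes called lower, 144 as reported, became 83, 25, 29, 51, 13, 14 and 646 in the same order, and 54 with a filter on all 8 arrays. With 1 array left out the counts ran from 13 to 1121 higher and from 25 to 323 lower. Partner genes called higher, 12 as reported, became 2 with quantile normalization, 1 in the z-scores, 19 with the filter on all 8 arrays, 66 with array weights and 0 with median scaling, no scaling, normexp or no filter, and ran from 0 to 52 with 1 array left out. Partner genes called lower, 0 as reported, became 1 with averaged probes and 4 with array weights, and ran from 0 to 2 with 1 array left out. Same-numbered replicates of the genotypes shared a slide column. Their deviations had correlations of 0.21, -0.16, -0.05 and 0.02, which cannot exclude a pairing, since differently numbered replicates were not compared. With a replicate block 0 genes were called higher and 0 lower, partner genes included (0). A probe near background has an uncertain level, which limits *Larp6*, *Larp7* and the dimmer probes of *Ssb* and *Pum2*.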

Other observations

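Markers of other cells on these arrays gave the following mean levels, with 4 arrays per genotype. Sinusoidal endothelial markers, 9 of 10 tested, ran from 0.24 to 1.05 in hCNR1+/+ and from 0.26 to 0.53 in hCNR1-/-. Lymphocyte markers, 3 of 10 tested, ran from 3.57 to 4.01 and from 3.98 to 5.30. Neutrophil markers, 2 of 7 tested, ran from 4.995 to 5.42 and from 4.92 to 5.60. Stellate cell markers, 2 of 8 tested, ran from -1.78 to -0.999 and from -2.52 to -1.30. Cholangiocyte markers, 2 of 6 tested, ran from -1.24 to 0.49 and from -1.70 to -0.01. Immediate-early genes, 8 of 8 tested, ran from 2.83 to 3.79 and from 2.59 to 3.62. None of these list means separated the genotypes, but single markers did. Both tested neutrophil markers did not overlap, with opposite signs at -0.80 and 0.70. Of the 3 lymphocyte markers, all higher in mean in hCNR1-/-, 2 did not overlap. The other lists held 0 such markers, and 0 markers of these lists were called by limma. Every hCNR1-/- array lay above every hCNR1+/+ array for 12.7% of all tested genes. That share counts separation upward only, so it gives no background for the neutrophil marker at -0.80.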
